A study of Homo sapiens with 4 samples.

Results

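QTP on irradiated cells was examined by setting the Drug_Radiation library against the Radiation library of MSTO-211H, an established line of human mesothelioma cells given as wild type in the labels. The cells were grown in suspension in serum-free medium with EGF, bFGF and heparin, a culture that the submitters describe as mesothelioma-initiating cells. Drug_Radiation cells received 10 µM QTP, a compound grouped by the series title with inhibitors of dopamine receptors, and 4 Gy. Radiation cells received vehicle and the same 4 Gy. Both were collected 48 h after irradiation, dissociated, pooled and made into one 3-prime single-cell RNA library each. Every barcode with under 20% mitochondrial UMIs (unique molecular identifiers, each standing for one captured RNA molecule) was taken as a cell. This gave 6990 of 7006 barcodes in Drug_Radiation and 2425 of 2428 in Radiation, or 9415 of the 16400 cells of the series. The unirradiated Drug and Control libraries are given only as further levels.

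Cells can make cholesterol from acetyl-CoA or take it up in lipoproteins. When sterol in the endoplasmic reticulum is low, the transcription factors SREBP2 and SREBP1, encoded by SREBF2 and SREBF1, are carried to the Golgi, cut and sent to the nucleus, where they activate genes of cholesterol and fatty acid synthesis. INSIG1 holds them back when sterol is plentiful. Ionising radiation breaks DNA and engages p53, whose targets include the cell-cycle inhibitor CDKN1A, and cells with damaged DNA stop before S phase or mitosis.

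The upstream stretches are shown of 3 genes of this sterol system, all at least 2-fold higher in Drug_Radiation than in Radiation. Each is the 150 bases before the gene's start in RefSeq, build GRCh38.p14, read 5′ to 3′ on the gene's strand. Capitals mark the motifs searched for on both strands, which were the sterol regulatory element TCACNCCAC, the CCAAT box CCAAT and the E-box TCACGTGA. None of the marked motifs overlap. Other genes of the cholesterol, sterol and fatty acid lists were also past 2-fold and are not printed. They included SCD, DHCR7, SREBF1, FASN, ACSS2, LPIN1 and ACSL3. The 150 bases of SCD held none of these motifs, and its CCAAT boxes began 229 and 186 bases before the start.
SREBF2, chr22:41832955-41833104, plus strand: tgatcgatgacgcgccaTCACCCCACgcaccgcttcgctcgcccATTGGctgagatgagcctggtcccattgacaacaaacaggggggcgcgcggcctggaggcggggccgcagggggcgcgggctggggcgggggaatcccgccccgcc
INSIG1, chr7:155297728-155297877, plus strand: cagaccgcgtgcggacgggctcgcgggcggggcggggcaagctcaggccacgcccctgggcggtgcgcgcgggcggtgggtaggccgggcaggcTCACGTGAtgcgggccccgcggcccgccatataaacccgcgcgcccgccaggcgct
HMGCS1, chr5:43313413-43313562, minus strand: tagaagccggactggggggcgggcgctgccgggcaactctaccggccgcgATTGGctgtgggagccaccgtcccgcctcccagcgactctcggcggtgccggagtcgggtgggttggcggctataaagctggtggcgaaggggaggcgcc

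The element in SREBF2 began 133 bases before the start and its CCAAT box, on the other strand, 106 bases before it. The E-box of INSIG1 began 56 bases and the printed CCAAT box of HMGCS1 100 bases before the start. RefSeq has 1 other entry for HMGCS1, with another start, and none of these motifs was found there. Within 250 bases before the start, the sterol element was found in 0.883% of 35116 RefSeq promoters and the E-box in 0.854%. CCAAT was found in 32% of all these promoters and in 15 of the 20 promoters of the 15 cholesterol synthesis genes that matched by symbol (75%). The sterol element in these exact letters was found in none of those 20. ACAT2, FDFT1 and SQLE had no entry. A match describes letters and not a bound site.

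Depth differed between the libraries. Drug_Radiation held 149368293 UMIs with a median of 18024.5 UMIs and 3954 genes per cell, and Radiation held 14859709 UMIs with medians of 5299 UMIs and 1761 genes. Their lowest cell totals were 6244 and 1592 UMIs, in Drug_Radiation and in Radiation, and mitochondrial UMIs were 5.20% of the total in Drug_Radiation and 3.55% in Radiation. In the unirradiated pair the median was 20405 UMIs per cell in Drug and 2318 in Control. The library with QTP was thus the deeper one in both pairs. No 2 libraries shared a barcode. QTP, depth per cell, mitochondrial share and any difference in how the libraries were made cannot be told apart with one library a side. Results from 3 choices of cells are therefore given side by side. They are all cells, 836 cells per library matched on UMIs (median 8733.5 in Drug_Radiation and 8727.5 in Radiation), and every cell thinned at random to 1500 UMIs. Matching takes shallow cells of Drug_Radiation and deep cells of Radiation, so it is not a neutral choice. At 1500 UMIs per cell the median number of genes was 770 in Drug_Radiation and 744 in Radiation.

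Levels are UMIs summed over cells scaled to the library's nuclear-encoded total as counts per 1000000 (CPM), and ratios are log2 of CPM plus 1 in Drug_Radiation over that in Radiation. In parentheses after a ratio stands a 95% interval, which covers counting error only. It leaves out the added 1 CPM, so for a gene low in either library it need not hold the printed ratio. There is no replicate, so no test across genes was made and 2-fold is a size, not a significance call.

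The MSTO-211H label was set against markers. KRT18 was at 2696 CPM in Drug_Radiation and 2759 CPM in Radiation, and VIM, an intermediate filament of mesenchymal cells, at 3166 CPM in Drug_Radiation and 4661 CPM in Radiation. Of 15 mesothelial markers 8 were under 5 CPM in both libraries. WT1 was at 1.89 CPM in Drug_Radiation and 1.60 CPM in Radiation, and UPK3B, KRT5, PDPN and LRRN4 had no UMI in Radiation. MSLN, mesothelin, was at 14.05 CPM in Drug_Radiation and 12.2 CPM in Radiation. The 7 mesothelial markers at 5 CPM or more were KRT18, VIM, MSLN, KRT8, CAV1, CALB2 and CDH2. KRT8 was at 2252 CPM in Drug_Radiation and 2828 CPM in Radiation, and CAV1 at 892 CPM in Drug_Radiation and 1073 CPM in Radiation. CALB2 was at 32.1 CPM in Drug_Radiation and 31.5 CPM in Radiation, and CDH2 at 27.4 CPM in Drug_Radiation and 24.1 CPM in Radiation. Of 27 markers of other cell types 22 were under 5 CPM in both libraries. The summed level of all 27 was 148 CPM in Drug_Radiation and 134 CPM in Radiation. The other 5 were MBP, CD68, LUM, SNAP25 and COL1A1. MBP was at 46.6 CPM in Drug_Radiation and 42.1 CPM in Radiation, and CD68 at 39.3 CPM in Drug_Radiation and 41.4 CPM in Radiation. All of these but COL1A1 were above MSLN in both libraries. PTPRC, which marks leukocytes, had 24 UMIs in Drug_Radiation (0.169 CPM) and 3 in Radiation (0.209 CPM).

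With QTP, irradiated cells held a larger share of mRNA from the cholesterol pathway and from lipid regulators, by less than 2-fold for most members. This was not particular to lipid genes. In matched cells the median log2 ratios of YAP and TEAD targets (0.69) and of EGF receptors and ligands (0.83) were above that of the cholesterol enzymes (0.47). In all cells they were below it, at 0.44 and 0.38 against 0.57. A small number of single genes differed by far more, in both directions, and several of these have near-identical copies or neighbours. Division genes were level or lower with QTP, depending on the cells compared, and the median of the p53 targets lay near that of all genes. Of 5239 genes with at least 20 CPM in either library, 60 were at least 2-fold higher in Drug_Radiation (1.15%) and 84 at least 2-fold lower (1.6%). In depth-matched cells the counts were 246 (4.7%) and 77 (1.47%). In cells thinned to 1500 UMIs they were 89 (1.7%) and 82 (1.57%). The genes past 2-fold in both all cells and matched cells numbered 48 higher (0.916%) and 65 lower (1.24%). With TMM scaling, 39 were higher and 90 lower in all cells. The median log2 ratio of all these genes was 0.13 in all cells, 0.00 in matched cells and 0.13 in thinned cells, and members are read against it or against the like median at 5 CPM.

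**Figure D1:**
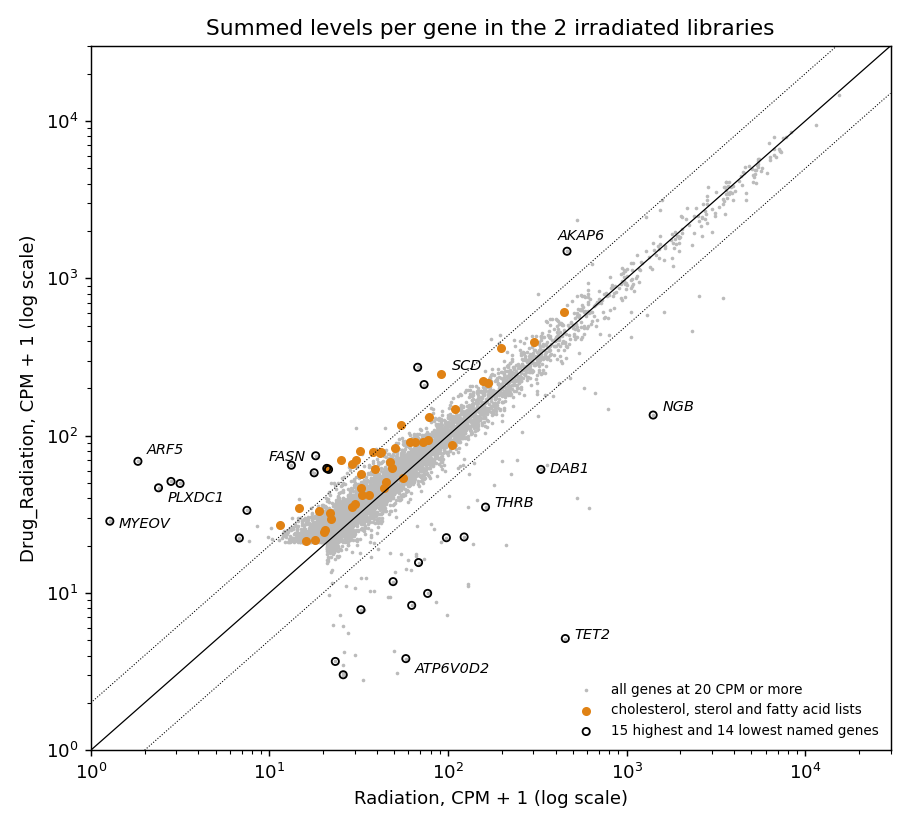
Level of each gene in Drug_Radiation (vertical axis) and Radiation (horizontal axis), both as CPM plus 1 on log scales, for genes with at least 20 CPM in either library. The solid line marks equal levels and the dotted lines 2-fold, filled orange points are genes of the cholesterol, sterol and fatty acid lists, and open circles are the 15 highest and 14 lowest named genes. Most orange points lie above the solid line, and ARF5 and TET2 lie farthest from it.

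The cholesterol pathway was measured in full, with all 20 listed enzymes at 5 CPM or more. Across all 10158 genes at 5 CPM, 1.38% were at least 2-fold higher in Drug_Radiation and 1.57% at least 2-fold lower. Of the 20 enzymes 2 were 2-fold higher and 0 were 2-fold lower. Their median log2 ratio was 0.57, against 0.19 for all 10158 genes, and all 20 lay above that median. In matched cells the median was 0.47, against 0.19 for all genes, and 19 of 20 lay above it and 1 was at least 2-fold higher, where 8.56% of all genes were. The exception was PMVK, phosphomevalonate kinase, with a matched log2 ratio of -0.05. In thinned cells, where 3.11% of all genes were at least 2-fold higher, the median was 0.63, against 0.20.

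The entry enzymes stood at a moderate level. ACAT2, which joins acetyl-CoA units, was at 76.2 CPM in Drug_Radiation and 40.6 CPM in Radiation (log2 ratio 0.89; 0.79 to 1.03). HMGCS1, which makes HMG-CoA, was at 77.2 CPM in Drug_Radiation and 36.9 CPM in Radiation (1.04; 0.94 to 1.19). Both were also above the all-gene median in matched cells, ACAT2 at 0.72 and HMGCS1 at 1.19.

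The mevalonate and isoprenoid steps came next. MVD, mevalonate diphosphate decarboxylase, was at 55.9 CPM in Drug_Radiation and 31.6 CPM in Radiation (0.80; 0.69 to 0.96). FDPS, which makes farnesyl diphosphate, was at 359 CPM in Drug_Radiation and 198 CPM in Radiation (0.85; 0.80 to 0.91). FDFT1, squalene synthase, was the most abundant of the list at 392 CPM in Drug_Radiation and 301 CPM in Radiation (0.38; 0.34 to 0.43). MVK, PMVK and IDI1, which lie between these steps or just before them, had ratios of 0.53, 0.41 and 0.39. The 2 ratios that follow FDFT1 in the pathway ran apart, since SQLE, squalene epoxidase, was at 0.27 and LSS, lanosterol synthase, at 0.82.

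The late steps turn lanosterol into cholesterol. DHCR7, which makes the last reduction in one branch, was at 116 CPM in Drug_Radiation and 53.9 CPM in Radiation (1.09; 1.0 to 1.21), the highest ratio of the list, and its matched ratio was 0.80. The late enzymes CYP51A1, TM7SF2, MSMO1, NSDHL, HSD17B7, EBP and SC5D lay between 0.26 (HSD17B7) and 0.57 (EBP and SC5D).

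**Figure D2:**
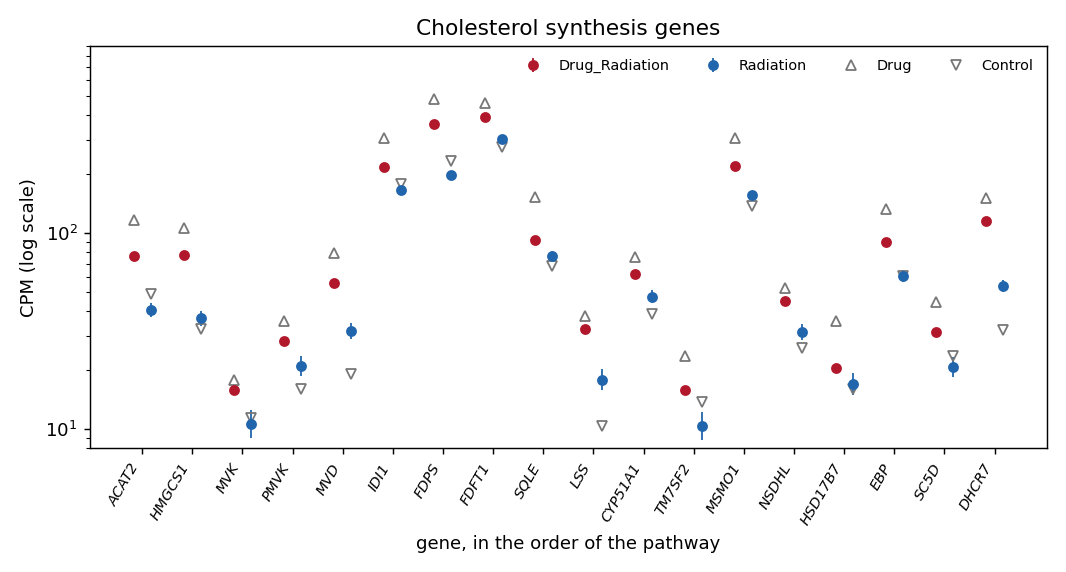
CPM on a log scale of 18 cholesterol synthesis genes, in pathway order, in Drug_Radiation and Radiation (filled circles with 95% Poisson intervals for counting error) and in the unirradiated Drug and Control libraries (open triangles). In each gene the Drug_Radiation point lies above the Radiation point.

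Summed over the list, the enzymes were at 2090 CPM in Drug_Radiation and 1385 CPM in Radiation, and the log2 ratio of these sums was 0.59 (0.57 to 0.61). In the unirradiated pair they were at 2779 CPM in Drug and 1312 CPM in Control. In cells thinned to 1500 UMIs the list had a mean of 2.94 UMIs per cell in Drug_Radiation and 1.96 in Radiation (SD over cells 2.24 and 1.95, in that order). No UMI of the list was seen in 10.5% of Drug_Radiation cells and 24.8% of Radiation cells at that depth.

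The excess held at each depth of cell. Among cells of 6500 to 9000 UMIs the list was at 2071 CPM in 517 Drug_Radiation cells and 1530 CPM in 438 Radiation cells. Among cells of 13000 to 20000 UMIs it was at 2104 CPM in 2124 Drug_Radiation cells and 1217 CPM in 100 Radiation cells. The log2 ratios of the 4 bins between 4500 and 20000 UMIs were 0.85, 0.44, 0.32 and 0.79 from shallow to deep, and the first of them rests on 55 Drug_Radiation cells.

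Genes of sterol sensing, uptake and transport had a median log2 ratio of 0.43 in all cells and 0.54 in matched cells, against 0.57 and 0.47 for the enzymes, and a few had higher ratios than any enzyme. Of 22 listed genes 17 were measured. In all cells 4 were at least 2-fold higher in Drug_Radiation (1.38% of all genes were) and 0 at least 2-fold lower (1.57%). In matched cells 4 were at least 2-fold higher, where 8.56% of all genes were. The 4 that were higher in all cells included INSIG1, SREBF2 and SREBF1, of which the last 2 are named after their values were seen. INSIG1 was at 69.1 CPM in Drug_Radiation and 24.3 CPM in Radiation (1.47; 1.35 to 1.67). SREBF2 was at 33.5 CPM in Drug_Radiation and 13.6 CPM in Radiation (1.24), and SREBF1 at 25.9 CPM in Drug_Radiation and 10.5 CPM in Radiation (1.22). In matched cells the ratios of INSIG1, SREBF2 and SREBF1 were 1.75, 1.59 and 1.70. The liver X receptors NR1H2 and NR1H3, which drive sterol export, had ratios of -0.06 and 0.07.

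SREBF2 and INSIG1 are the genes whose upstream stretches carry the sterol element and the E-box shown above. The share of cells with a UMI at 1500 UMIs per cell was 9.17% in Drug_Radiation and 3.22% in Radiation for INSIG1. Cell types were not called in these libraries, so none gives a background. Of the markers of other cell types, CD14, a monocyte gene, was seen in 0.0286% of Drug_Radiation cells and 0% of Radiation cells. CD68, another immune marker, was seen in 5.08% of Drug_Radiation cells and 4.74% of Radiation cells. A count of 0 in Radiation allows up to 0.209 CPM, taken as 3 counts.

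Fatty acid synthesis was higher along with them. Of 18 measured genes of 21 listed, 5 were at least 2-fold higher in all cells (1.38% of all genes were) and 0 at least 2-fold lower (1.57%). In matched cells 6 were at least 2-fold higher, where 8.56% of all genes were. The median was 0.43 in all cells, 0.54 in matched cells and 0.56 in thinned cells. FASN, fatty acid synthase, was at 60.9 CPM in Drug_Radiation and 19.96 CPM in Radiation (1.56; 1.44 to 1.78), with 39.2 CPM in Drug and 30.3 CPM in Control. SCD, which puts the first double bond into fatty acids, was at 247 CPM in Drug_Radiation and 90.8 CPM in Radiation (1.43; 1.36 to 1.52) and was seen in 27.98% of thinned Drug_Radiation cells and 11.8% of thinned Radiation cells. ACSS2, LPIN1 and ACSL3, named after their values were seen, had ratios of 1.25, 1.19 and 1.18. HACD3, a dehydratase of fatty acid elongation, lay lowest at -0.29, and the elongation and desaturation genes ELOVL6 and FADS2 were at 0.30 and 0.33.

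The summed level of the fatty acid list was 1194 CPM in Drug_Radiation and 750 CPM in Radiation. Its log2 ratio by depth bin was 1.34, 0.91, 0.44 and 0.75 from shallow to deep. Of 44 genes of the cholesterol, sterol and fatty acid lists with at least 20 CPM, 10 were at least 2-fold higher and 0 at least 2-fold lower. These 10 are 22.7% of the 44 members, where 1.15% of all 5239 genes at 20 CPM were 2-fold higher. They are 16.7% of the 60 genes that were 2-fold higher.

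**Figure D3:**
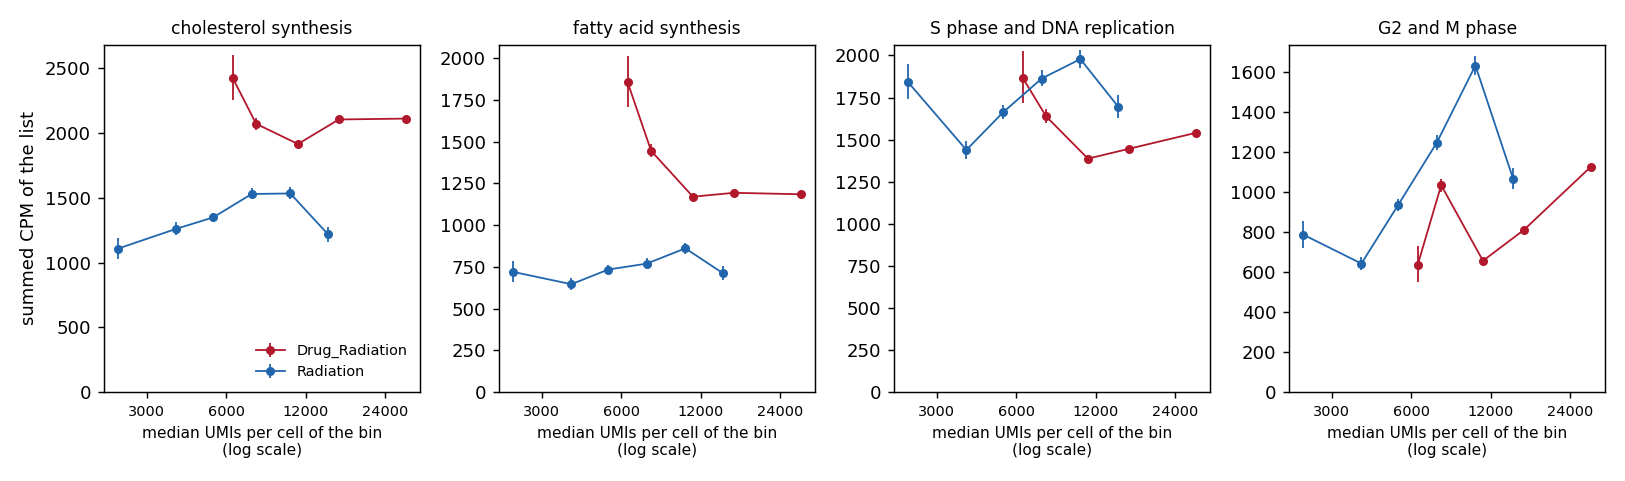
Summed CPM of 4 gene lists (vertical axes, from 0) against the median UMIs per cell of a depth bin (horizontal axes, log scale) in Drug_Radiation and Radiation, with 95% Poisson intervals for counting error. The cholesterol and fatty acid lists are higher in Drug_Radiation wherever both libraries have cells. The G2 and M phase list is lower in Drug_Radiation in each of the 4 bins both libraries fill, and the S phase list in 3 of them.

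Cell division genes were lower than genes in general by their median ratio, and by more in matched cells. Of 39 measured G2 and M phase genes none passed 2-fold in all cells, and the median log2 ratio was -0.08, against 0.19 for all genes. In matched cells 8 were at least 2-fold lower (1.55% of all genes were), and the median was -0.69. In thinned cells the median was 0.01, against 0.20 for all genes. The log2 ratio of the summed levels was -0.15 (-0.17 to -0.12) in all cells. Altogether 33 of 39 lay below the all-gene median in both all and matched cells. HMGB2, a chromatin protein that rises in dividing cells, was at 70.01 CPM in Drug_Radiation and 122 CPM in Radiation (-0.79; -0.88 to -0.73; matched -1.53). TOP2A, topoisomerase II of dividing cells, was at 37.6 CPM in Drug_Radiation and 44.3 CPM in Radiation (-0.23; matched -0.56). MKI67, the proliferation marker, was at 6.79 CPM in Drug_Radiation and 5.44 CPM in Radiation, with an interval of -0.01 to 0.67 that holds 0. CDC25B, a phosphatase of mitotic entry, was at 0.80.

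The level of these genes differed with depth in the Radiation library, and not in one direction. The G2 and M phase list there was at 788 CPM in cells under 3000 UMIs and 643 CPM in cells of 3000 to 4500 UMIs. It was at 937, 1247 and 1633 CPM in the next 3 bins, up to 13000 UMIs, and at 1066 CPM in cells of 13000 to 20000 UMIs. Matching changes which Radiation cells are used, and its part in the lower matched ratio was not tested. In the 4 shared depth bins the list's log2 ratio was -0.56, -0.27, -1.31 and -0.39 from shallow to deep.

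The S phase list behaved similarly, with no gene of 35 past 2-fold in all cells and a median of -0.11. In matched cells 5 were at least 2-fold lower and the median was -0.53, while in thinned cells it was -0.01. PCNA, the sliding clamp of replication and a p53 target, was at 250 CPM in Drug_Radiation and 335 CPM in Radiation (-0.42; -0.47 to -0.38; matched -0.82). TYMS, thymidylate synthase, ran the other way at 42.9 CPM in Drug_Radiation and 24.2 CPM in Radiation (0.80; 0.67 to 0.98). In the 4 depth bins the list's ratio was 0.17, -0.19, -0.51 and -0.23.

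Cells with at least 1% of their UMIs from S and G2 and M genes together were 2.16% of Drug_Radiation cells (151 of 6990; Clopper-Pearson 1.83 to 2.53) and 4.37% of Radiation cells (106 of 2425; 3.59 to 5.26). At 1500 UMIs per cell the shares were 2.75% in Drug_Radiation and 4.33% in Radiation, and in matched cells 1.2% in Drug_Radiation and 7.30% in Radiation. The limit is a cut through a range, since 215 Drug_Radiation cells and 110 Radiation cells lay between 0.8% and 1.2%. Leaving out the cells at or above it left the cholesterol median at 0.55. It turned the G2 and M phase median to 0.36 and left that of the S phase list at 0.00, against 0.20 for all genes, but the limit is set on these same genes.

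The p53 targets, measured in 30 of 32 listed genes, had a median of 0.23 in all cells and 0.08 in matched cells, where the median of all genes was 0.19 in both. In all cells 2 were at least 2-fold higher and 0 at least 2-fold lower. CDKN1A was at 478 CPM in Drug_Radiation and 393 CPM in Radiation (0.28; 0.24 to 0.32), but at 409 CPM in Drug_Radiation and 440 CPM in Radiation in matched cells (-0.11). The unirradiated libraries held 359 CPM in Drug and 172 CPM in Control. GDF15, a secreted stress factor, was at 389 CPM in Drug_Radiation and 266 CPM in Radiation (0.54; matched 0.56). MDM2, which degrades p53, was at 108 CPM in Drug_Radiation and 88.9 CPM in Radiation (0.27; matched 0.56). The direction of CDKN1A thus turned with the cells compared, and that of GDF15 and MDM2 did not.

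The 2 p53 targets past 2-fold were the death receptor TNFRSF10B and the kinase PLK3. TNFRSF10B, which binds TRAIL, was at 57.02 CPM in Drug_Radiation and 26.4 CPM in Radiation (1.08; 0.96 to 1.27; matched 1.41). PLK3 was at 22.9 CPM in Drug_Radiation and 10.9 CPM in Radiation (1.01; 0.84 to 1.31; matched 0.99). BTG2, an antiproliferative gene, was the second lowest of the list after PCNA, at -0.35. TNFRSF10B was also the only one of 26 measured genes of the BCL2 family and death list past 2-fold. That list had a median of 0.22, with CASP8 lowest at -0.46. Of 23 measured genes of double-strand break repair none passed 2-fold in all cells, and the median was 0.08 in all cells and 0.07 in matched cells. PARP1, which senses breaks, was at 70.4 CPM in Drug_Radiation and 92.9 CPM in Radiation (-0.39).

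**Figure D4:**
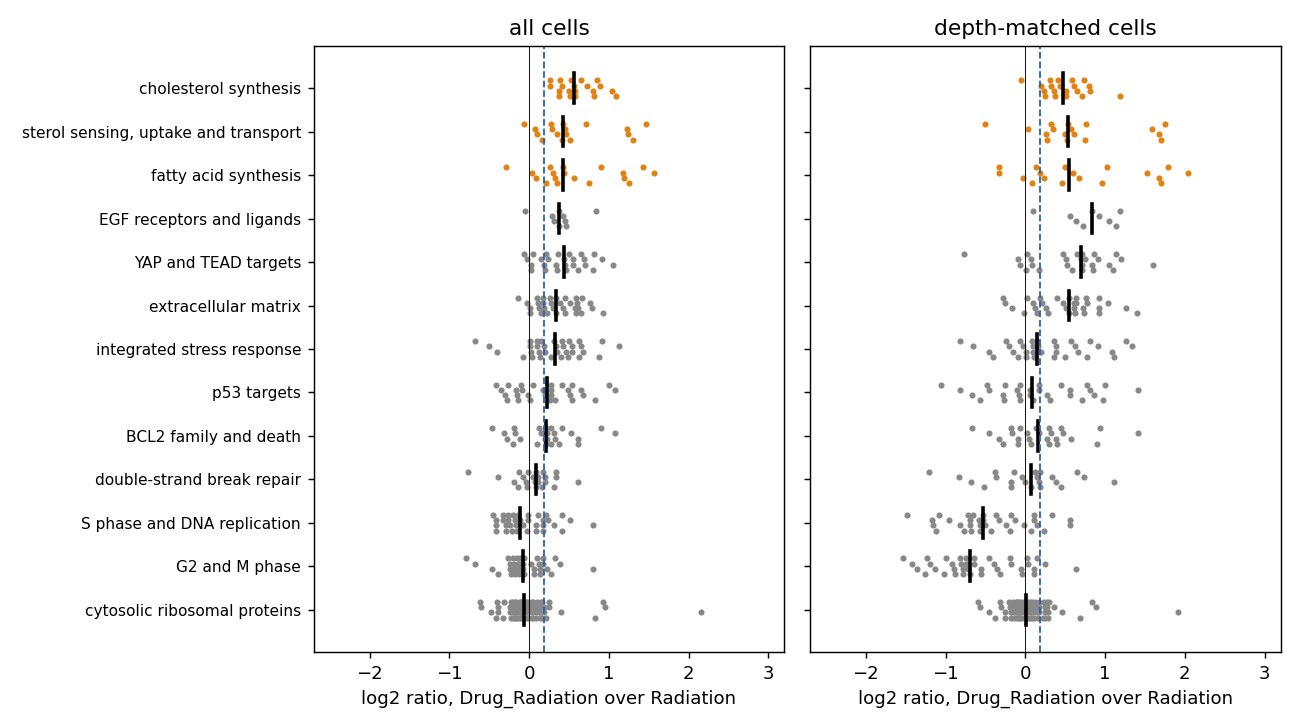
Log2 ratio of each measured member of 13 gene lists (points), with the list's median (black bar), in all cells (left) and in depth-matched cells (right). The dashed line is the median of all genes at 5 CPM, 0.19 in both panels. All 20 cholesterol synthesis points lie above it on the left, and the S and G2 and M phase medians lie at -0.53 and -0.69 on the right.

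Adhesion, matrix and growth factor genes were somewhat higher, more so in matched cells. The 27 measured YAP and TEAD targets had a median of 0.44 in all cells and 0.69 in matched cells, with 1 at least 2-fold higher in all cells. That gene was FOXF2, at 7.29 CPM in Drug_Radiation and 3.0 CPM in Radiation (1.05; 0.84 to 1.76; thinned 0.57). ANKRD1, a classical YAP target, was at 15.4 CPM in Drug_Radiation and 15.6 CPM in Radiation. The list's ratio by depth bin was 1.27, 0.72, 0.33 and 0.21 from shallow to deep, so it was smaller in deeper cells.

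The 32 measured extracellular matrix genes had a median of 0.34 in all cells and 0.55 in matched cells, with none past 2-fold in all cells. LAMA5, a laminin chain, was highest at 46.98 CPM in Drug_Radiation and 24.1 CPM in Radiation (0.93; 0.80 to 1.12), and SERPINH1, a collagen chaperone, lowest at -0.13. The matrix list's ratio by depth bin was 0.64, 0.41, 0.12 and -0.05, so it too shrank with depth and was below 0 in the deepest bin. MMP2, a gelatinase, was at 48.99 CPM in Drug_Radiation and 23.4 CPM in Radiation (1.04; 0.91 to 1.23; matched 0.99). Of 9 measured EGF and FGF receptors and ligands none passed 2-fold in all cells, with FGF2 highest at 0.84 (matched 1.13) and ERBB4 lowest at -0.05 (matched 0.93).

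Stress programmes gave no common direction. The integrated stress response list had a median of 0.33 over 34 genes in all cells and 0.15 in matched cells. CEBPB, a transcription factor of stress and inflammation, was at 49.2 CPM in Drug_Radiation and 21.98 CPM in Radiation (1.13; 1.0 to 1.33), and SLC7A11, the cystine importer, at 0.92. AARS1, alanyl-tRNA synthetase, lay lowest at 123 CPM in Drug_Radiation and 199 CPM in Radiation (-0.68; -0.75 to -0.63). DDIT3, which encodes CHOP, was at 0.54. HSPA5, the main chaperone of the endoplasmic reticulum, was at 405 CPM in Drug_Radiation and 401 CPM in Radiation.

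In the endoplasmic reticulum list only SYVN1 of 30 measured genes was at least 2-fold higher. SYVN1, a ubiquitin ligase of protein degradation there, was at 57.1 CPM in Drug_Radiation and 16.8 CPM in Radiation (1.70; 1.58 to 1.95; matched 1.54). Among 22 NRF2 targets TXNRD1, thioredoxin reductase, was at 613 CPM in Drug_Radiation and 1609 CPM in Radiation (-1.39; -1.41 to -1.37; matched -1.08), while GCLM, of glutathione synthesis, was at 0.81. TXNRD1 was at 617 CPM in Drug and 1767 CPM in Control, so that both libraries with QTP were low. MT2A, a metallothionein, was at 2576 CPM in Drug_Radiation and 2775 CPM in Radiation (-0.11).

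Other named genes followed their own pattern. MYC was at 334 CPM in Drug_Radiation and 541 CPM in Radiation (-0.69; -0.73 to -0.66), and matching left it at -0.67. DUSP5, a phosphatase of ERK, was at 9.55 CPM in Drug_Radiation and 2.58 CPM in Radiation (1.56; 1.42 to 2.40). NDRG1, a hypoxia gene, was at 191 CPM in Drug_Radiation and 313 CPM in Radiation (-0.71), and SLC16A3, a lactate exporter, at 0.71. CDKN2A, which encodes p16 and ARF, had 6.88 CPM in Drug_Radiation and 0.488 CPM in Radiation (7 UMIs). Its log2 ratio was 2.40, and the interval without the added 1 CPM was 2.77 to 5.13. In the unirradiated pair CDKN2A was at 6.61 CPM in Drug and 0.894 CPM in Control (8 UMIs). It was thus near 0 in the libraries without QTP, which were also the shallower ones. CSF1, the macrophage growth factor, was at 19.2 CPM in Drug_Radiation and 8.93 CPM in Radiation (1.02; 0.85 to 1.37).

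The remaining lists had few members past 2-fold in all cells. The 40 lysosomal genes had a median of 0.17 and none past 2-fold, with GAA, the acid glucosidase, at 154 CPM in Drug_Radiation and 230 CPM in Radiation (-0.58). Of 18 proton pump subunits, median 0.33, only ATP6V0D2 passed 2-fold. The 29 autophagy genes had a median of 0.09, the 33 hypoxia and glycolysis genes 0.18 and the 19 cytosolic heat shock proteins 0.09, with none past 2-fold. The 50 nuclear-encoded respiratory chain genes had a median of 0.25 in all cells and -0.03 in matched cells, from SDHD at -0.63 to ATP5MC1 at 0.80. The 28 interferon response genes had a median of 0.24 with none past 2-fold.

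Of 21 genes of MHC class I presentation, median 0.05, only HLA-G was 2-fold lower, at 0.77 CPM in Drug_Radiation and 9.63 CPM in Radiation (-2.59), while HLA-C was at 0.49. HLA genes are near copies of each other, so this ratio is uncertain. The 17 mesothelial and epithelial genes had a median of 0.18 and a summed level of 9250 CPM in Drug_Radiation and 11546 CPM in Radiation. The 17 stem and tumour-initiating markers had a median of 0.40 in all cells and 0.64 in matched cells, with members from -0.69 to 0.82 (NOTCH1). Their summed level was lower with QTP, at 1261 CPM in Drug_Radiation and 1387 CPM in Radiation (log2 ratio of sums -0.14; -0.16 to -0.12). Medians were 0.43 for 22 immediate early genes, 0.46 for 13 secreted factors and 0.26 for 20 matrix proteases and inhibitors. The summed level of the immediate early list was instead lower with QTP, at 1054 CPM in Drug_Radiation and 1127 CPM in Radiation (log2 ratio of sums -0.10). That of the secreted factors was nearly level (0.05). Medians were 0.26 for 14 D cyclins, kinases and inhibitors, 0.27 for 12 tubulins and 0.39 for 10 mesothelioma tumour suppressors. The suppressor BAP1 was at 8.64 CPM in Drug_Radiation and 4.33 CPM in Radiation (0.86; 0.63 to 1.39). The 79 ribosomal protein genes had a median of -0.06 in all cells and 0.01 in matched cells. The 24 long noncoding RNAs had a median of 0.09 in all cells and -0.01 in matched cells, and 2 were at least 2-fold lower in all cells. Their summed level was 11119 CPM in Drug_Radiation and 14734 CPM in Radiation (log2 ratio of sums -0.41).

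The receptors that a dopamine receptor inhibitor could bind were close to the limit of counting. Of 36 dopamine, serotonin, histamine, adrenergic and muscarinic receptors 33 were under 5 CPM in both libraries. DRD1 and DRD5 had no UMI in either library, which allows up to 0.0212 CPM in Drug_Radiation and 0.209 CPM in Radiation. DRD2 had 11 UMIs in Drug_Radiation (0.0777 CPM) and 0 in Radiation. DRD3 had 39 in Drug_Radiation (0.275 CPM) and 12 in Radiation (0.837 CPM), so its CPM was lower in Drug_Radiation. In cells with under 1% of UMIs from S and G2 and M genes, DRD3 had 39 UMIs in Drug_Radiation (0.282 CPM) and 2 in Radiation (0.147 CPM). Its direction thus turned when few cells were left out. DRD4 had 61 in Drug_Radiation (0.431 CPM) and 3 in Radiation (0.209 CPM). HTR1D was at 14.8 CPM in Drug_Radiation and 10.4 CPM in Radiation (0.47; 0.27 to 0.76), and HRH1, the histamine H1 receptor, at 13.1 CPM in Drug_Radiation and 12.9 CPM in Radiation. CHRM2 was at 1.24 CPM in Drug_Radiation and 5.72 CPM in Radiation (-1.59).

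The largest ratios belonged to genes outside these programmes. ARF5, a small GTPase of vesicle traffic (chr7:127588345-127591705 in GENCODE 29, GRCh38), was at 67.7 CPM in Drug_Radiation and 0.837 CPM in Radiation (12 UMIs; log2 ratio 5.22). It was at 53.3 CPM in Drug and 1.23 CPM in Control. MYEOV, an overexpressed gene of myeloma, was at 27.6 CPM in Drug_Radiation and 0.279 CPM in Radiation (4 UMIs), and in the unirradiated pair at 14.4 CPM in Drug and 0.112 CPM in Control. Both were thus high in the libraries with QTP and near 0 in those without.

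PLXDC1 and TMEM108 were instead high in Drug_Radiation alone. PLXDC1, a membrane protein of tumour endothelium, was at 45.6 CPM in Drug_Radiation and 1.40 CPM in Radiation, with 1.28 CPM in Drug and 1.90 CPM in Control. TMEM108, a membrane protein studied in neurons, was at 48.6 CPM in Drug_Radiation and 2.16 CPM in Radiation, with 2.67 CPM in Drug and 2.91 CPM in Control. PLXDC1 was seen in 7.17% of thinned Drug_Radiation cells and TMEM108 in 6.57%, with at most 3 and 2 UMIs in one cell, so their UMIs were spread over cells. In Radiation a single thinned cell held 8 UMIs of TMEM108.

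AKAP6, an anchor of protein kinase A in muscle, was the most abundant of the 15 highest genes, at 1485 CPM in Drug_Radiation and 463 CPM in Radiation (1.68; 1.65 to 1.72; matched 2.30). It was seen in 86.8% of thinned Drug_Radiation cells and 46.8% of thinned Radiation cells. CSKMT, a mitochondrial methyltransferase, was at 271 CPM in Drug_Radiation and 66.6 CPM in Radiation (2.01), and SBF2, of membrane traffic, at 59.98 CPM in Drug_Radiation and 20.4 CPM in Radiation (1.51). PCBD2, KCNJ6, CLVS1 and FRMD5 also belonged to the 15 highest, with ratios of 1.52, 2.16, 2.04 and 1.72.

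Several of the strongest ratios involve genes that share sequence or position with another, and the counting could split such reads either way. RPSA, a ribosomal protein, was at 2349 CPM in Drug_Radiation and 525 CPM in Radiation (2.16), while its copy RPSAP58 was at 461 CPM in Drug_Radiation and 2322 CPM in Radiation (-2.33). RPSA was the only one of 79 ribosomal protein genes past 2-fold. DDTL was at 50.1 CPM in Drug_Radiation and 1.81 CPM in Radiation, and the near copy DDT beside it at 295 CPM in Drug_Radiation and 205 CPM in Radiation. HNRNPA1L2 was at 63.9 CPM in Drug_Radiation and 12.3 CPM in Radiation, and its parent HNRNPA1 at 1342 CPM in Drug_Radiation and 1803 CPM in Radiation. PHPT1 was at 413 CPM in Drug_Radiation and 174 CPM in Radiation, and MAMDC4, which overlaps it on chromosome 9, at 47.4 CPM in Drug_Radiation and 180 CPM in Radiation. The partners had ratios of opposite sign in each pair but that of DDTL and DDT. Ratios of these genes are therefore uncertain as changes in level. Named copies as a class took 0.0845% of UMIs in Drug_Radiation and 0.274% in Radiation, but much of this was RPSAP58. It alone gave 65313 of the 126276 UMIs of named copies in Drug_Radiation and 33282 of the 40696 in Radiation.

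**Figure D5:**
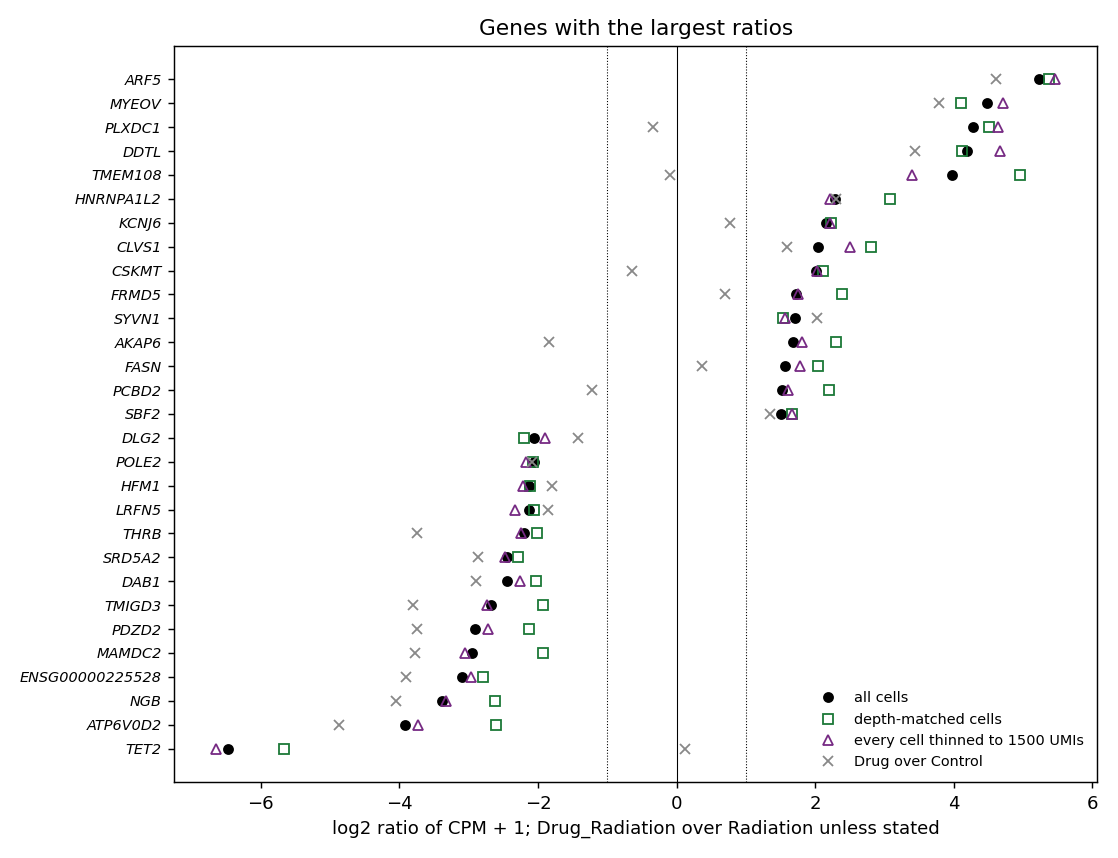
Log2 ratio of Drug_Radiation over Radiation for the 15 highest and 14 lowest named genes in all cells (circles), depth-matched cells (squares) and cells thinned to 1500 UMIs (triangles), and of Drug over Control (crosses). The dotted lines mark 2-fold. PLXDC1, TMEM108 and TET2 lie far from 0 in the irradiated pair and near 0 in the unirradiated pair, and AKAP6 and PCBD2 lie on opposite sides of 0.

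The lowest ratio was that of TET2, which oxidises 5-methylcytosine in DNA (chr4:105145875-105279816). It was at 4.13 CPM in Drug_Radiation and 453 CPM in Radiation (-6.47; -6.90 to -6.65), and at 4.60 CPM in Drug and 4.13 CPM in Control. TET2 was seen in 0.529% of thinned Drug_Radiation cells and 45.7% of thinned Radiation cells. The Radiation library thus stood apart from the other 3 for this gene. No source used here gives the counting software or its version, so whether all 4 libraries were counted alike is not known. This limits the ratios of TET2, ARF5, MYEOV, CDKN2A, PLXDC1, TMEM108 and AKAP6 as well as those of the copies above. Among the unnamed genes of the set, 1 is on the Y chromosome and its level is not given.

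NGB, which encodes neuroglobin, was at 134 CPM in Drug_Radiation and 1406 CPM in Radiation (-3.38; -3.42 to -3.36; matched -2.62). It was seen in 19.2% of thinned Drug_Radiation cells and 86.8% of thinned Radiation cells. In the unirradiated pair it was at 177 CPM in Drug and 2944 CPM in Control. Both libraries with QTP, which were also the deeper ones, were thus low. ATP6V0D2, a proton pump subunit of osteoclasts, was at 2.82 CPM in Drug_Radiation and 57.1 CPM in Radiation (-3.92; matched -2.60), and THRB, a thyroid hormone receptor, at 34.1 CPM in Drug_Radiation and 161 CPM in Radiation (-2.21; matched -2.02). DAB1 and DLG2, both long genes of neurons, had ratios of -2.44 and -2.06. POLE2, a subunit of DNA polymerase epsilon, was at 10.8 CPM in Drug_Radiation and 48.3 CPM in Radiation (-2.06; matched -2.07). SRD5A2, PDZD2, HFM1, LRFN5, MAMDC2, TMIGD3 and ENSG00000225528 lay between -2.13 and -3.10.

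The 84 genes that were 2-fold lower differed as a class from those that were 2-fold higher. Not protein-coding in GENCODE 29 were 28.6% of the lower genes, 10% of the higher genes and 2.94% of all genes at 20 CPM. The median gene span was 118 kb for the lower genes, 24.4 kb for the higher genes and 28.1 kb for all. Spans over 100 kb made up 54.3% of the lower genes with a position (44 of 81), 27.6% of the higher and 15.8% of all. Of the 84 lower genes 78 were also at least 2-fold lower in Drug than in Control, and 0 were 2-fold higher there. Of the 60 higher genes 19 were also 2-fold higher in Drug than in Control and 6 were 2-fold lower. The share of all genes past 2-fold in Drug over Control was not counted. The median log2 ratio of Drug over Control was -2.52 for the lower genes, 0.60 for the higher genes and 0.50 for all genes at 20 CPM. The higher genes thus lay near all genes there by their median. The 2 comparisons share no library.

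The lower genes also moved with depth within a library. The median log2 ratio of the cells above to cells below a library's median depth was -0.33 in Drug_Radiation and -0.30 in Radiation for the lower genes, against 0.08 in Drug_Radiation and 0.11 in Radiation for all genes. The lower genes were thus, by their median, at higher CPM in the shallower cells of both libraries, and Radiation cells were the shallower. The part of depth in their ratios was not tested. Of the 84, 65 stayed at least 2-fold lower in matched cells.

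Nuclear and long noncoding RNAs had part of this pattern. MALAT1, a nuclear RNA, was at 581 CPM in Drug_Radiation and 1304 CPM in Radiation (-1.16; -1.19 to -1.14), but at 915 CPM in Drug_Radiation and 1033 CPM in Radiation in matched cells (-0.18). NEAT1, which builds paraspeckles, was at 206 CPM in Drug_Radiation and 136 CPM in Radiation (0.59), with a matched ratio of 1.94. LINC00486 was at 748 CPM in Drug_Radiation and 3473 CPM in Radiation (-2.21; matched -1.98), and CYTOR at 842 CPM in Drug_Radiation and 603 CPM in Radiation (0.48). Matching moved the ratio of NEAT1 by more than 2-fold, and those of MALAT1 and LINC00486 by less. In thinned cells MALAT1 was at -1.19 and NEAT1 at 0.62.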

How the data were processed

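The values used were whole-number UMI counts per gene and barcode as deposited by the authors, not normalized. The build hg38 and the package Seurat 4.3.3 stand in the submitters' processing notes without a stated role. The labels name the PIPseq V T2 3-prime kit and, elsewhere, 10x Genomics, so the platform is not settled. For the aligner, counter, strand and annotation, the sources used here give nothing. Barcodes had been filtered before deposit at levels that differ between libraries. GENCODE 29 supplied gene types and positions for 34472 of 37468 features (92%).

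From these, cells under 20% mitochondrial UMIs were kept and doublets were neither called nor removed. UMIs were summed per library and scaled to the nuclear-encoded total, with 1 CPM added before log2. With 1 library a group, no test was made and no leaving out of replicates was possible. Depth matching took equal numbers of cells per 0.1 log2 bin of UMIs with seed 1. Intervals (exact binomial for ratios, Poisson for levels, Clopper-Pearson for shares, all 95%) and the floor of 3 counts cover counting error only. Genes were counted at 2-fold with 20 CPM in either library, and list members at 5 CPM. The members and the 35 lists were chosen with earlier results of these data known. Named genes were the 15 highest and 15 lowest protein-coding genes without a named copy by the smaller ratio of all and matched cells, the 2 highest and 2 lowest of each list, a fixed panel and the cholesterol synthesis genes, of which some are not reported here. RPSAP58, DDT, HNRNPA1, PHPT1, MAMDC4, FADS2, ELOVL6, ACSS2, LPIN1, ACSL3, SREBF1 and SREBF2 were chosen after seeing their values. The counting of ratios and the intervals were tested on simulated data. Alternatives were other cells, scalings, floors and pseudocounts. Python 3.11.15, numpy 2.4.6, scipy 1.17.1, and, for scaling only, edgeR 4.0.16 and DESeq2 1.42.0 were used.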

Additional observations from a re-analysis of the deposited data

Results flagged for a closer look

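AKAP6 had a log2 ratio of 1.68 for Drug_Radiation over Radiation and of -1.84 for Drug over Control, which is at least 2-fold in opposite directions in the irradiated and the unirradiated pair. PCBD2 had 1.52 in the irradiated pair and -1.22 in the unirradiated pair. Each pair holds 1 library a side, so the difference between pairs was not tested.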

How the results depend on the processing

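The main counts were 60 genes 2-fold higher and 84 genes 2-fold lower in Drug_Radiation. The count of higher genes was 246 in depth-matched cells and 117 in cells of 6500 to 15000 UMIs, and 39 with TMM scaling, with median-of-ratios scaling and with a pseudocount of 5 CPM. With a floor of 5 CPM the counts were 140 higher and 159 lower, with 50 CPM 35 higher and 54 lower, and with no floor 191 higher and 210 lower. The share of higher calls thus moves with the cells and the scaling. The median log2 ratio of genes at 20 CPM was 0.13 as reported and 0.00 with TMM scaling. The count of lower genes was 77 to 93 under every alternative other than the floors and the limit to protein-coding genes without a named copy (57) or to genes past 2-fold in matched cells too (65). Under the other 9 alternatives both counts stayed within 1.5 times. Of 50 named genes past 2-fold none changed sign under any of 12 alternatives, and 12 fell under 2-fold in at least one. The difference between Drug_Radiation and Radiation in the percent of cells with a UMI turned in depth-matched cells without thinning for CDKN1A (-1.08), HLA-C (-0.72), HMOX1 (-1.32) and TUBG1 (-0.84), and the cause was not tested. No paired analysis was possible because each group has 1 library. Radiation has the fewer UMIs, so its counts set the width of most intervals.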
